A study of Mus musculus with 24 samples.

Results

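A set of 40 genes was described that bacterial lipopolysaccharide (LPS) raised in wild-type mouse embryonic fibroblasts (MEFs) and that dexamethasone (Dex, a synthetic glucocorticoid) raised further. They were chosen from the authors' deposited normalized counts, which are gene counts scaled by 1 factor per library, in wild-type libraries: the mean with LPS at least 1.5 times that with vehicle, the mean with Dex and LPS at least 1.3 times that with LPS (1 added to each mean), and a mean of at least 50 with LPS. The thresholds were met by 46 of the 12588 genes (0.365%), and 6 of these were among the 10 acute phase and complement genes left out by name (Lcn2, Saa3, Serpina3n, Cp, Ptx3, Steap4, C3, C4b, Cfb and Serping1). The 40 remaining genes are a small part of the 639 genes that met the LPS ratio and the level alone. The wild-type LPS and Dex with LPS values of the 40 genes are therefore given as a description, without a test.

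RNA came from MEFs of male C57BL/6 embryos at day 13.5, from which head and inner organs had been removed, after 7 days of culture. The cells were wild type (GR wt / wt) or carried GR Zn / Zn, an alteration of the glucocorticoid receptor (GR), on both alleles. Each genotype had 4 groups of 3 libraries: ethanol vehicle, 1 uM Dex for 16 h, 100 ng/ul LPS for 6 h with ethanol, and Dex for 16 h with LPS for 6 h. Whether the 3 libraries of a group came from separate embryos or dishes is not stated, so the p-values cover only the spread between libraries, which could be technical. Nor can genotype be told apart from the particular embryos and dishes used.

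Glucocorticoids enter the cell and bind GR, a nuclear receptor that then acts on genes, either by binding DNA through its zinc fingers or through other DNA-bound factors. LPS is sensed by the receptor TLR4, which activates the transcription factor NF-kB and, through interferons and interleukin 6 type cytokines, STAT factors. GR is best known in inflamed tissue for lowering NF-kB target genes such as cytokines. A smaller group of genes, including acute phase proteins and inhibitors of TLR signalling, is known to respond to both signals in the same direction.

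The libraries held 18.9 to 25.5 M counted reads in 21 cases and 43.9 to 58.0 M in the other 3, which carry a later library number in their labels (replicate 3 of wild type with both agents, replicate 1 of mutant vehicle and replicate 2 of mutant LPS). A further pair, replicate 1 of wild type and replicate 2 of the mutant, each with both agents, stood off from their groups in step with transcript length (rank correlation of the deviation with exon length -0.49 and -0.51). These 5 libraries stand apart, and counts of members are also given without them. All 12 fibroblast markers, among them Col1a1, Vim and Pdgfra, were expressed, and their summed level was 28511 to 37779 CPM per library (CPM are counts scaled to the library total). With vehicle, Pdgfra was at 34.4 to 35.9 CPM in wild type and 157 to 170 CPM in the mutant. For Col1a1 and Vim the vehicle ranges of the genotypes overlapped. The 19 leukocyte markers summed to 83.9 to 252 CPM, with the T cell gene Cd3e at 0 in every library. Nr3c1, which encodes GR, was at 89.1 to 95.9 CPM in wild-type and 89.0 to 92.3 CPM in mutant vehicle libraries, which does not show whether the alteration is present. In bulk RNA, fewer cells of a type and less RNA per cell cannot be told apart.

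In the deposited counts, the ratio of LPS to vehicle had a median of 2.25 over the 40 genes (range 1.53 to 43.5), and that of Dex with LPS to LPS a median of 1.62 (1.31 to 6.11). In CPM, all 3 LPS libraries lay above all vehicle libraries for 40 genes, where 26.5% of all 15221 genes tested did so in that direction. All 3 Dex with LPS libraries lay above all LPS libraries for 38 genes, against 15.2% of genes, and both counts restate the choice of the genes. The 2 genes whose groups overlapped were Pcdh17 and Cebpd. The ratio reached at least 1.3 in each single Dex with LPS library for 28 genes and was at least 2 on average for 12: Mt2, Susd2, Angptl7, Rcsd1, Gprc5b, Serpina3i, Ampd3, Serpina3h, Rasl12, Sdc4, Ism1 and Sik1. Just inside the thresholds stood Cbr2, Gopc and Pcdh17 for LPS (1.53, 1.54 and 1.57), Slc2a6 and Cebpd for Dex (1.31 and 1.33), and Gm8773, Ms4a4d and Angptl7 for the level (50.3, 52.2 and 53.3 normalized counts). Just outside stood Tmem176b, Fth1 and Mt1 for LPS (1.49, 1.46 and 1.45), Stard5, Nipal1 and Cdc42ep5 for Dex (1.28, 1.27 and 1.26), and Cyyr1, Rtn1 and Marco for the level (40.6, 37.5 and 33.7).

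**Figure D1:**
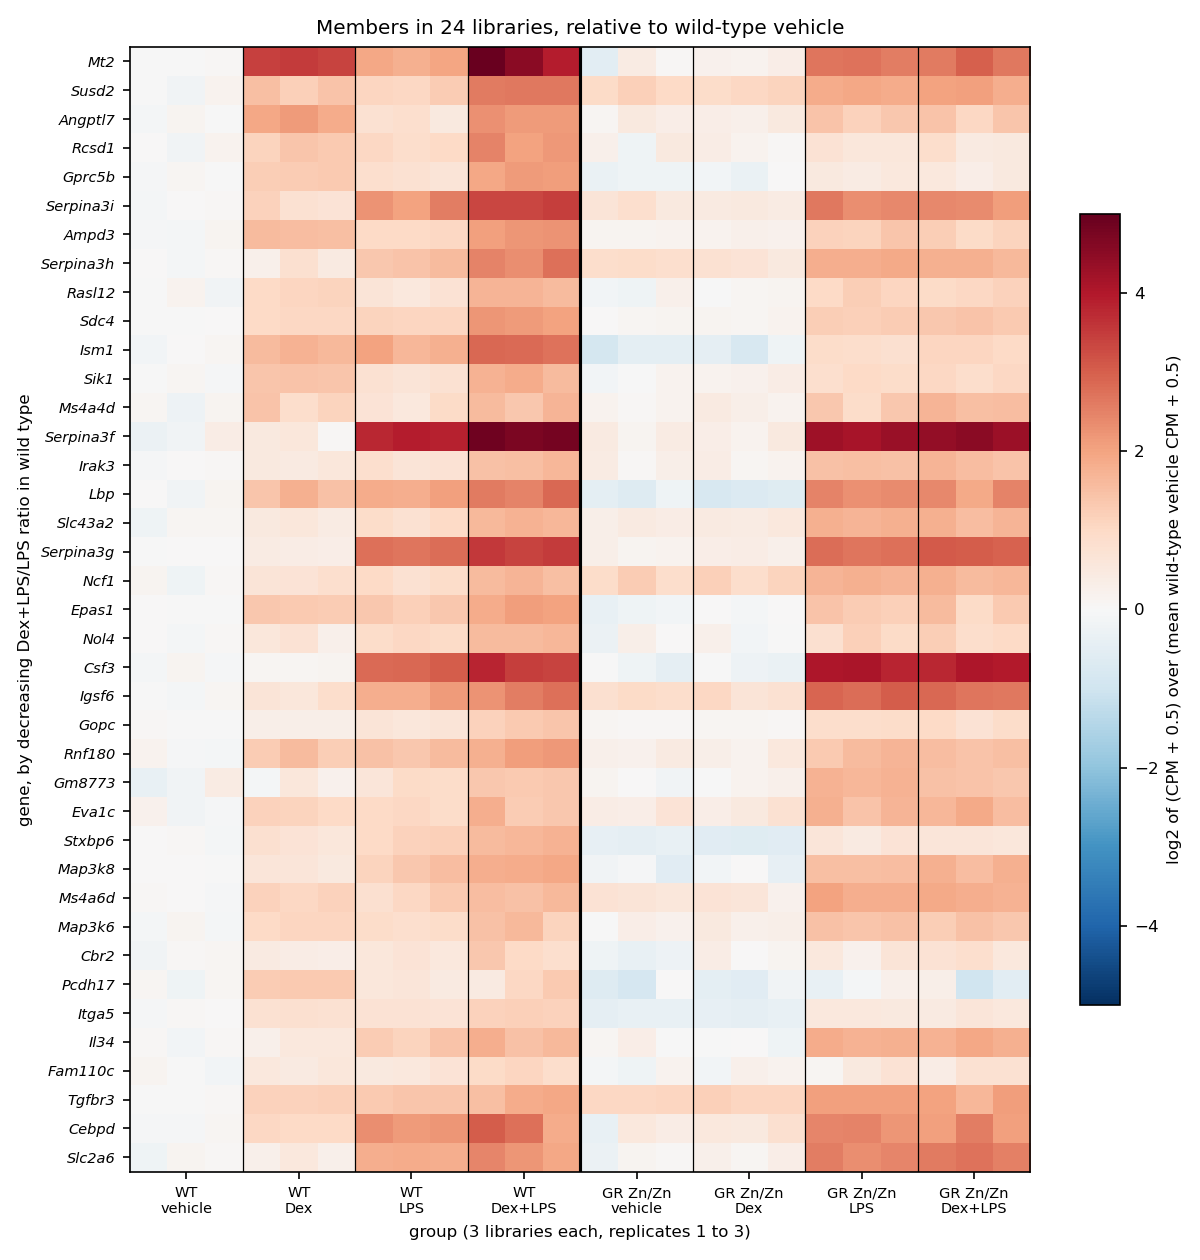
Levels of 39 of the 40 genes (rows, ordered by their wild-type ratio of Dex with LPS to LPS) in 24 libraries (columns, 3 per group), as log2 of CPM + 0.5 relative to the mean of wild-type vehicle. In wild type the columns deepen from Dex and LPS to both together, while the mutant LPS and Dex with LPS columns look alike for most rows.

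Dex without LPS raised most of these genes in wild type. Of the 40 genes, all of which passed the filter on low counts, 35 rose with Dex against vehicle and none fell (edgeR quasi-likelihood test, Benjamini-Hochberg adjusted p below 0.05 over 15221 genes), where 7.92% of all genes rose and 5.24% fell. The median log2 change was 1.08, against 0.00 over all genes, and the range was 0.28 to 3.44. Without the 5 libraries that stand apart, 37 of the 40 genes rose. The vehicle libraries of this comparison also entered the LPS ratio that chose the genes, so it is not independent of the choice. The 5 genes that did not pass were Serpina3f (log2 0.89 ± 0.36, adjusted p = 0.115), Csf3 (0.28 ± 0.38, 0.771), Gm8773 (0.33 ± 0.24, 0.468), Cbr2 (0.40 ± 0.14, 0.0548) and Slc2a6 (0.38 ± 0.15, 0.11). For Serpina3f and Csf3 only 12 and 13 reads stood behind the 3 vehicle libraries and 27 and 17 behind the 3 Dex libraries. Without vehicle replicate 3, Serpina3f passed (log2 1.69, adjusted p = 0.00596).

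Mt2 (ENSMUSG00000031762, chromosome 8, 94172664 to 94173568 on mm10), a metallothionein that binds zinc and copper, had the highest ratio of the set. In wild type Mt2 was at 28.6, 29.2 and 30.4 CPM with vehicle, 316, 336 and 309 with Dex, 113, 102 and 118 with LPS and 911, 684 and 452 with both. Every library with both agents exceeded every library with 1 of them, and the 3 were spread more widely than those of any other group. In mutant cells Mt2 was at 20.4, 38.7 and 30.6 CPM with vehicle, 34.1, 32.8 and 37.0 with Dex, 189, 194 and 177 with LPS and 182, 239.7 and 183 with both. The mutant passed the test with LPS only, and its groups with and without Dex overlapped in both settings. Dex alone raised Mt2 10.9-fold in wild type (log2 3.44 ± 0.21, adjusted p = 1.93e-10), and the change differed between genotypes by a log2 of -3.21 ± 0.29 (adjusted p = 1.86e-07). The ratio of Dex with LPS to LPS was 6.11, and 5.10 and 7.12 without the libraries that stand apart, replicates 1 and 3. Per kilobase of exon Mt2 was also the highest member in wild type with Dex and LPS (1161 CPM per kb, against 359 for Itga5 and 169.6 for Sdc4). Its promoter window from RefSeq (GRCm38.p6, chr8:94172368-94172667, plus strand, 250 bases before to 50 after the annotated start) is shown because metallothionein promoters are known to bind a zinc-sensing factor at metal response elements. Capitals mark the 6 matches to TGCNCNC on either strand, a short pattern that 51.0% of all 32851 promoter windows in the table hold at least once. Whether any of the 6 is a working metal response element was not tested.
Mt2: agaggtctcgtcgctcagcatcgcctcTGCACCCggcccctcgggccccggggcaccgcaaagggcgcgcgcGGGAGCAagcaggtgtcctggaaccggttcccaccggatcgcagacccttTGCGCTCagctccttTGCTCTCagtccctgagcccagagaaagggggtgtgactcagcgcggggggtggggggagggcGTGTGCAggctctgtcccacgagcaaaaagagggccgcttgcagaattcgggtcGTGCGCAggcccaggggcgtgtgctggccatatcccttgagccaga

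**Figure D2:**
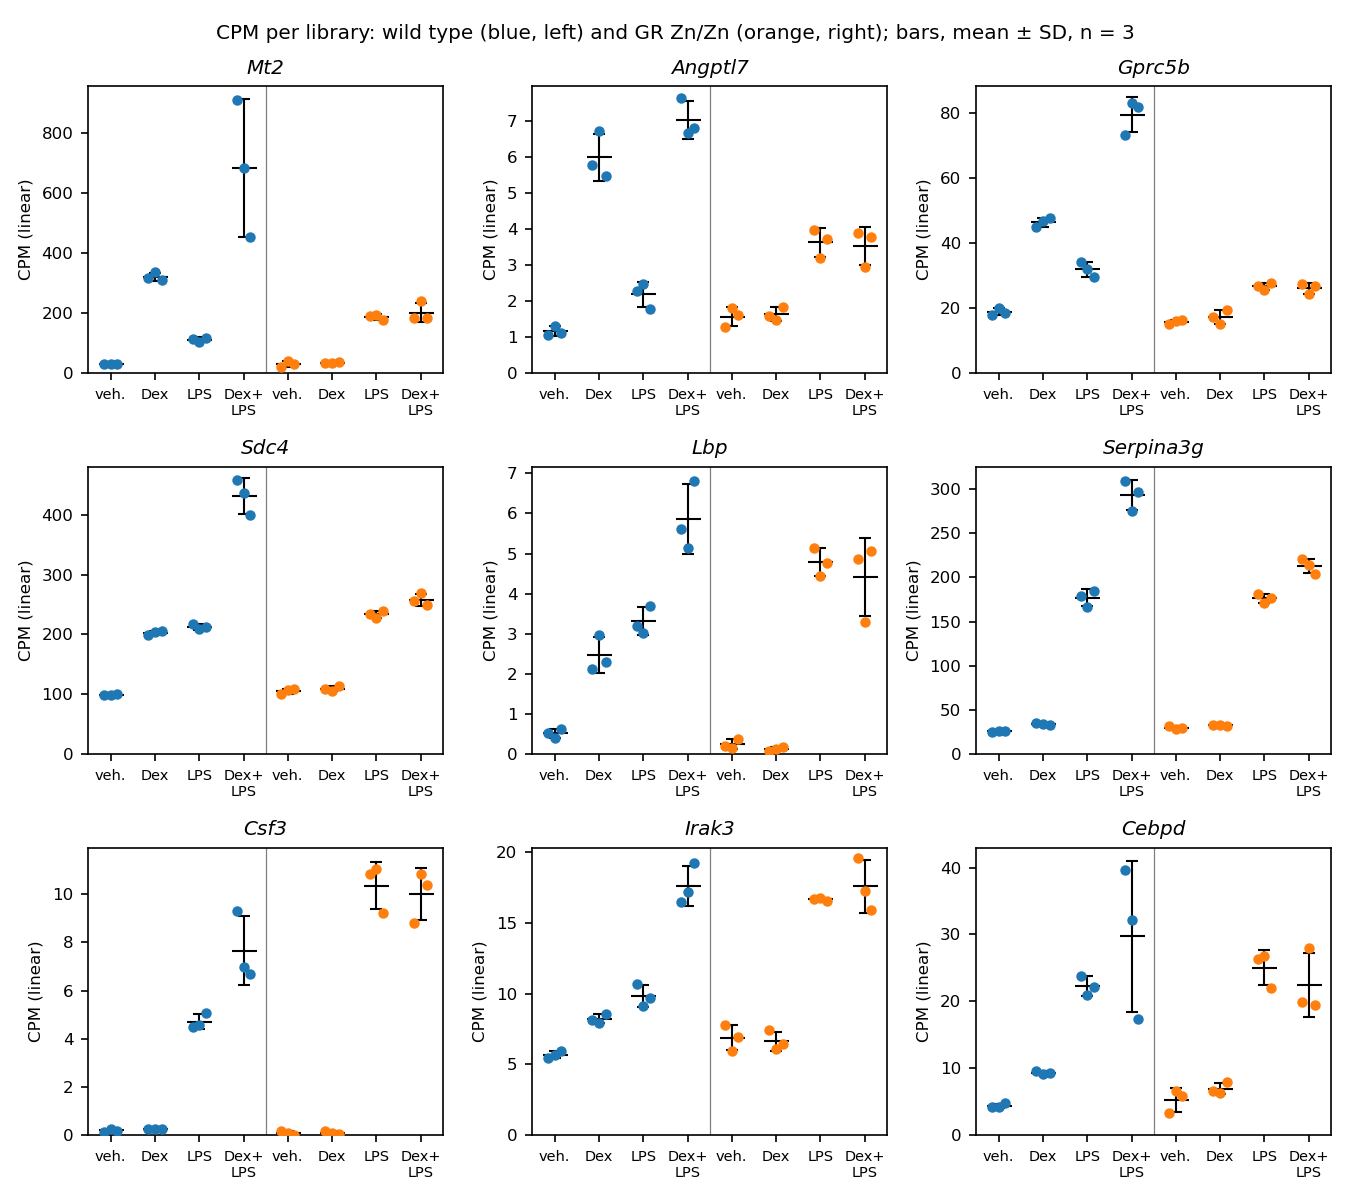
CPM in each library (points) with mean ± SD (bars, n = 3) for 9 genes, wild type in blue on the left and GR Zn / Zn in orange on the right, on linear axes from 0. For Mt2 the wild-type libraries with both agents span 452 to 911 CPM, above the mutant ones at 182 to 239.7 CPM, and for Csf3 and Irak3 the mutant libraries with LPS exceed those of wild type with LPS.

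A block of 4 neighbouring genes on chromosome 12 belonged to the set: Serpina3f (104214544 to 104221129), Serpina3g (104236245 to 104241939), Serpina3h (104247905 to 104253669, annotated as a transcribed unprocessed pseudogene) and Serpina3i (104263122 to 104269372). They are related to the serine protease inhibitor antichymotrypsin, an acute phase protein, and their values are uncertain where near-identical copies share reads. In wild type Serpina3g was at 25.4, 26.2 and 26.3 CPM with vehicle, 34.8, 34.0 and 32.5 with Dex, 179, 167 and 185 with LPS and 309, 275 and 297 with both. In mutant cells Serpina3g was at 31.5, 28.4 and 29.4 CPM with vehicle, 33.0, 33.3 and 31.2 with Dex, 181, 171 and 176 with LPS and 220.3, 214 and 204 with both. The wild-type libraries with both agents were the highest of all 24, and the mutant libraries with LPS reached the level of wild type with LPS. Serpina3g rose with Dex alone in wild type by a log2 of 0.38 ± 0.06 (adjusted p = 5.17e-05). It also had the smallest adjusted p of the 40 genes for Dex under LPS in the mutant: all 3 mutant libraries with both agents lay above the 3 with LPS (log2 0.27 ± 0.05, adjusted p = 0.0854), which did not pass. Without the 5 libraries that stand apart it passed (log2 0.26, adjusted p = 9.32e-05), as it did with DESeq2 (adjusted p = 0.00137) and with the replicate block (adjusted p = 0.0379).

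In wild type Serpina3f was at 0.0475, 0.0873 and 0.372 CPM with vehicle, 0.442, 0.496 and 0.205 with Dex, 8.73, 9.60 and 9.19 with LPS and 18.7, 16.8 and 17.8 with both. In mutant cells Serpina3f was at 0.424, 0.238 and 0.380 CPM with vehicle, 0.350, 0.253 and 0.429 with Dex, 11.96, 11.0 and 12.9 with LPS and 13.7, 14.6 and 12.5 with both. Serpina3f was near 0 without LPS in both genotypes, and the mutant libraries with LPS lay above the wild-type ones with LPS. In wild type Serpina3i was at 0.0950, 0.131 and 0.165 CPM with vehicle, 0.884, 0.578 and 0.513 with Dex, 2.47, 2.05 and 3.21 with LPS and 5.91, 5.96 and 6.48 with both. Serpina3i rose with Dex alone (log2 1.83 ± 0.27, adjusted p = 3.76e-05), from 9 reads over the 3 vehicle libraries to 46. Serpina3h stood at 1.14 to 1.32 CPM with vehicle, 1.61 to 2.56 with Dex, 3.97 to 4.78 with LPS and 8.19 to 11.3 with both in wild type. For all 4 genes the 3 wild-type libraries with both agents exceeded the 21 other libraries. Promoter windows of RefSeq (GRCm38.p6, plus strand, 250 bases before to 50 after the start) were matched for 25 of the 40 genes, in 31 windows. A window each of Serpina3f, Serpina3g and Serpina3i is shown because it holds TTCNNNGAA, the letters of a STAT site (read on both strands, in capitals). These letters occur in 19.4% of the members' windows and 8.30% of all windows, and of the 5 genes with a match 3 are these neighbours. Serpina3f has a further, overlapping window (chr12:104214383-104214682), not shown, that holds the same match and counts in the 19.4%. The match starts 121, 33 and 102 bases before the annotated start in Serpina3f (chr12:104214294-104214593), Serpina3g (chr12:104235897-104236196) and Serpina3i (chr12:104262872-104263171). Aligned end to end with gaps counted, the windows of Serpina3f and Serpina3i share 67.9% of positions, and those of Serpina3g and Serpina3i 51.1%. These shares also depend on where the annotated starts place the windows. By the same measure the shown and the further Serpina3f window, which overlap, share 54.2%.
Serpina3f: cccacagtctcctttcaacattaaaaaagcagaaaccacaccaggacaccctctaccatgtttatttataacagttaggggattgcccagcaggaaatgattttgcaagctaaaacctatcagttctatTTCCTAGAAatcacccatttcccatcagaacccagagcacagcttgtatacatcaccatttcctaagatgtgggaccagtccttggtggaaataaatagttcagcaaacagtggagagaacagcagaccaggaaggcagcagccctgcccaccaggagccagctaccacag
Serpina3g: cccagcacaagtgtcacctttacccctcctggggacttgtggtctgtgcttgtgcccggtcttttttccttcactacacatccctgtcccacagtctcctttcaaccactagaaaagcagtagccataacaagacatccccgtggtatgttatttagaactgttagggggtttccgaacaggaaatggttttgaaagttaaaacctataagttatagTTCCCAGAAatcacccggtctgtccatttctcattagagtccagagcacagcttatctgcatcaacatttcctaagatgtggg
Serpina3i: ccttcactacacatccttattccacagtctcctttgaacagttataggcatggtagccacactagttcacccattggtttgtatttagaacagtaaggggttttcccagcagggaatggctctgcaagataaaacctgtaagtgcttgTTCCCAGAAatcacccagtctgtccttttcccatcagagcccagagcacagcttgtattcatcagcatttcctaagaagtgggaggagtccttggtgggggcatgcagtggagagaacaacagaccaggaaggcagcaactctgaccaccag

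Among genes of LPS sensing and inflammatory signalling, Lbp (chromosome 2, 158306493 to 158332852) encodes the serum protein that hands LPS to its receptor complex. In wild type Lbp was at 0.522, 0.393 and 0.620 CPM with vehicle, 2.13, 2.97 and 2.31 with Dex, 3.20, 3.03 and 3.70 with LPS and 5.60, 5.15 and 6.82 with both. In mutant cells Lbp was at 0.212, 0.143 and 0.380 CPM with vehicle, 0.0874, 0.127 and 0.172 with Dex, 5.15, 4.45 and 4.77 with LPS and 4.87, 3.30 and 5.08 with both. Dex alone brought Lbp just below its LPS level in wild type, while the mutant Dex libraries were at or under 0.172 CPM, 9 reads in all. The rise with Dex alone was 4.32-fold (log2 2.11 ± 0.23, adjusted p = 4.46e-07), and the genotypes differed in it by a log2 of -2.73 ± 0.45 (adjusted p = 0.000271). As Lbp is abundant in liver, 18 hepatocyte markers were read beside it: their sum in wild type was 97.3 to 209.6 CPM with vehicle, 34.4 to 37.3 with Dex, 3.55 to 41.5 with LPS and 4.39 to 246 with both. In the mutant that sum was 34.9 to 241 CPM with vehicle, 1.47 to 41.5 with Dex, 25.7 to 151 with LPS and 20.6 to 24.4 with both. The part of liver cells in the Lbp values was not tested in either genotype. Irak3 (chromosome 10, 120141648 to 120202130) encodes IRAK-M, a kinase-dead relative of the IRAK kinases that dampens TLR signalling. In wild type Irak3 was at 5.41, 5.68 and 5.91 CPM with vehicle, 8.16, 7.93 and 8.56 with Dex, 10.6, 9.13 and 9.68 with LPS and 16.5, 17.2 and 19.2 with both. In mutant cells Irak3 was at 7.75, 5.95 and 6.96 CPM with vehicle, 7.39, 6.07 and 6.44 with Dex, 16.7, 16.8 and 16.5 with LPS and 19.6, 17.3 and 15.9 with both. All wild-type libraries with both agents lay above those with LPS, and the mutant libraries with LPS alone stood at the lower end of that range. Irak3 rose with Dex alone by a log2 of 0.53 ± 0.11 (adjusted p = 0.00111), with a genotype difference of -0.60 ± 0.15 (adjusted p = 0.012). That genotype difference did not pass without mutant vehicle replicate 1 (log2 -0.48, adjusted p = 0.0746).

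Csf3 (chromosome 11, 98701263 to 98703629) encodes G-CSF, the growth factor of neutrophils. In wild type Csf3 was at 0.142, 0.262 and 0.165 CPM with vehicle, 0.241, 0.248 and 0.256 with Dex, 4.48, 4.57 and 5.06 with LPS and 9.29, 6.99 and 6.70 with both. In mutant cells Csf3 was at 0.177, 0.0951 and 0 CPM with vehicle, 0.175, 0.0843 and 0.0429 with Dex, 10.8, 11.0 and 9.23 with LPS and 8.82, 10.9 and 10.4 with both. The level rested on LPS in both genotypes, and the mutant libraries with LPS were all above the wild-type ones with LPS. The wild-type ratio of Dex with LPS to LPS was 1.61, and 1.45 without replicate 1. Il34, which encodes a ligand of the macrophage receptor CSF1R, was at 3.07 to 3.97 CPM with LPS and 4.03 to 5.34 with both in wild type. Its rise with Dex alone (log2 0.57 ± 0.17, adjusted p = 0.0333) was lost in 8 alternative settings, and its ratio was 1.13 with Dex and LPS replicate 2 alone. Map3k8, which encodes the kinase TPL2 that links NF-kB signalling to ERK, was at 3.04, 3.01 and 2.94 CPM with vehicle, 4.86, 4.87 and 4.46 with Dex, 6.99, 8.36 and 9.62 with LPS and 11.8, 12.2 and 12.7 with both in wild type. Dex alone raised it by a log2 of 0.65 ± 0.14 (adjusted p = 0.00256), and its genotype difference did not pass (-0.56 ± 0.21, adjusted p = 0.132).

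Among cell surface and matrix genes, Sdc4 (chromosome 2, 164424247 to 164443887) encodes syndecan 4, a heparan sulfate proteoglycan of focal adhesions. In wild type Sdc4 was at 98.8, 99.0 and 101 CPM with vehicle, 199, 204 and 206 with Dex, 218, 209 and 212 with LPS and 459, 437.5 and 399.5 with both. In mutant cells Sdc4 was at 100.1, 107 and 108 CPM with vehicle, 109, 106 and 113 with Dex, 235, 228 and 239 with LPS and 255, 269 and 249 with both. In wild type Dex alone gave levels slightly under those of LPS alone, and both together gave more than 4 times that of vehicle. Dex alone raised Sdc4 2.04-fold (log2 1.03 ± 0.05, adjusted p = 1.05e-12), and the genotypes differed by a log2 of -0.97 ± 0.07 (adjusted p = 2.24e-09). Itga5 (chromosome 15, 103344286 to 103366763) encodes the alpha chain of the fibronectin receptor. In wild type Itga5 was at 752, 808 and 795 CPM with vehicle, 1323, 1359.9 and 1334 with Dex, 1286, 1304 and 1254 with LPS and 1752, 1807 and 1755 with both. In mutant cells Itga5 was at 570.3, 611 and 609.9 CPM with vehicle, 585, 577 and 604 with Dex, 1118, 1134 and 1112 with LPS and 1082, 1210.0 and 1141 with both. The replicates of Itga5 differed little, and its wild-type ratio of Dex with LPS to LPS was 1.36 to 1.40 in the 3 single libraries. The mutant level with Dex was lower than that of wild type with Dex by a log2 of -1.19 ± 0.05 (adjusted p = 6.39e-15).

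Gprc5b (chromosome 7, 118972047 to 118995211), which encodes an orphan receptor of the G protein-coupled class, showed a larger change with Dex than with LPS. In wild type Gprc5b was at 17.9, 20.1 and 18.6 CPM with vehicle, 44.8, 46.7 and 47.6 with Dex, 34.2, 32.1 and 29.4 with LPS and 73.2, 83.2 and 81.8 with both. In mutant cells Gprc5b was at 15.0, 16.1 and 16.2 CPM with vehicle, 17.4, 15.0 and 19.3 with Dex, 26.7, 25.6 and 27.8 with LPS and 27.5, 24.2 and 26.7 with both. The wild-type Dex libraries were all above the LPS libraries, and those with both agents above either. Angptl7 (chromosome 4, 148495183 to 148500460), which encodes a secreted angiopoietin-like protein, followed the same order. In wild type Angptl7 was at 1.04, 1.31 and 1.12 CPM with vehicle, 5.79, 6.73 and 5.48 with Dex, 2.28, 2.48 and 1.79 with LPS and 7.65, 6.67 and 6.80 with both. Its libraries with Dex and with both agents overlapped, unlike those of Gprc5b. Dex alone raised Angptl7 4.93-fold (adjusted p = 3.08e-10) and Gprc5b 2.45-fold (adjusted p = 6.09e-11). Ism1, which encodes the secreted protein isthmin 1, went from 2.56 to 3.10 CPM with vehicle to 9.53 to 10.5 with Dex, 10.0 to 13.0 with LPS and 21.4 to 24.1 with both. In the mutant Ism1 was at 1.32 to 1.86 CPM with vehicle, already below wild type, and at 1.43 to 2.36 with Dex. With Dex it was lower than in wild type by a log2 of -2.34 ± 0.14 (adjusted p = 9.44e-12). The Dex effect on Ism1 differed between genotypes by a log2 of -1.54 ± 0.22 (adjusted p = 3.13e-05). Susd2, a cell surface protein gene, stood at 2.28, 2.18 and 2.66 CPM with LPS and 7.52, 7.79 and 7.67 with both, a ratio of 3.18. The mutant vehicle libraries of Susd2 (2.07 to 2.47 CPM) were already above those of wild type (0.655 to 0.992 CPM).

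Tgfbr3, which encodes the TGF-beta coreceptor betaglycan, was at 56.3, 59.7 and 59.7 CPM with LPS and 65.4, 83.0 and 88.2 with both. It rose with Dex alone (log2 1.18 ± 0.10, adjusted p = 4.85e-09). For Tgfbr3 the ratio of Dex with LPS to LPS was 1.11 in replicate 1 and 1.40 and 1.52 in the other 2. Pcdh17, a protocadherin of cell contacts, varied between libraries. Its wild-type libraries held 1.95, 1.44 and 1.90 CPM with vehicle, 4.98, 5.08 and 5.18 with Dex, 2.83, 2.99 and 2.61 with LPS and 2.58, 4.12 and 5.14 with both. Replicate 1 with both agents lay below all LPS libraries, and without replicate 3 the ratio was 1.18, under the threshold. Pcdh17 was also the one member whose wild-type mean with both agents was below that with Dex alone.

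The set held the transcription factor genes Epas1 and Cebpd. Epas1 (chromosome 17, 86753700 to 86833410) encodes HIF-2 alpha, a hypoxia-responsive factor. In wild type Epas1 was at 13.2, 12.7 and 12.7 CPM with vehicle, 33.6, 32.4 and 32.0 with Dex, 33.4, 30.3 and 33.9 with LPS and 48.6, 57.0 and 53.0 with both. In mutant cells Epas1 was at 9.78, 11.1 and 11.7 CPM with vehicle, 13.0, 12.2 and 13.0 with Dex, 35.4, 32.1 and 30.3 with LPS and 39.2, 25.4 and 33.0 with both. In wild type the libraries with Dex and with LPS overlapped and those with both lay above them, while in the mutant the libraries with LPS and with both overlapped. Dex alone raised Epas1 by a log2 of 1.34 ± 0.11 (adjusted p = 5.28e-09), with a genotype difference of -1.10 ± 0.16 (adjusted p = 5.62e-05). Cebpd (chromosome 16, 15887286 to 15891031) encodes C/EBP delta, which drives acute phase genes. In wild type Cebpd was at 4.23, 4.15 and 4.76 CPM with vehicle, 9.53, 9.13 and 9.23 with Dex, 23.8, 21.0 and 22.1 with LPS and 39.6, 32.2 and 17.4 with both. The 3 libraries with both agents did not move together: replicate 3 lay below all LPS libraries, replicates 1 and 2 above them. The ratio was 1.33 over the 3, 1.11 without replicate 1, 1.27 without replicate 2, 1.60 without replicate 3 and 1.43 with replicate 2 alone. Cebpd thus fell under the threshold without either replicate 1 or 2, and stayed above it without replicates 1 and 3, which stand apart. Cebpd rose with Dex alone (log2 1.07 ± 0.28, adjusted p = 0.0125). Its genotype difference did not pass (-0.58 ± 0.40, adjusted p = 0.551), but did without the 5 libraries that stand apart (log2 -0.90, adjusted p = 3.99e-05).

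Of the kinases, Sik1 (chromosome 17, 31844250 to 31855804) encodes a salt-inducible kinase that holds back CREB coactivators. In wild type Sik1 was at 17.6, 19.1 and 17.3 CPM with vehicle, 48.0, 48.7 and 48.5 with Dex, 31.2, 28.4 and 30.8 with LPS and 60.7, 67.2 and 54.5 with both. The change of Sik1 with Dex alone (log2 1.42 ± 0.08, adjusted p = 1.7e-11) was larger than the 0.74 with LPS, and in the mutant Sik1 was at 16.5, 17.7 and 20.3 CPM with vehicle and 20.5, 21.3 and 23.1 with Dex. These mutant groups did not overlap, but the change of 0.26 ± 0.08 (log2) did not pass, with an adjusted p of 0.675. Map3k6 (chromosome 4, 133240818 to 133252929), which encodes a MAP kinase kinase kinase related to ASK1, was at 8.45, 10.0 and 8.48 CPM with vehicle, 18.7, 19.4 and 19.3 with Dex, 17.3, 16.6 and 17.3 with LPS and 25.4, 28.4 and 20.2 with both in wild type. Dex raised it by a log2 of 1.08 ± 0.11 (adjusted p = 2.73e-07). Its promoter window (chr4:133240568-133240867, plus strand) is shown because it alone among the 31 windows of members holds the core of a glucocorticoid response element (GNACA and TGTNC, 3 bases apart), in capitals 181 bases before the annotated start. These letters occur in 0.475% of all windows. The NF-kB letters GGGA and TTCC, 2 bases apart, occur in 0 of the members' windows and 1.47% of all, AGAACA, one arm of the receptor element, in 19.4% and 19.0%, TGANTCA (AP-1) in 12.9% and 7.81%, and TTGCNNAA (C/EBP) in 22.6% and 10.8%. Each was read on both strands, and a match or its absence describes these 300 bases only.
Map3k6: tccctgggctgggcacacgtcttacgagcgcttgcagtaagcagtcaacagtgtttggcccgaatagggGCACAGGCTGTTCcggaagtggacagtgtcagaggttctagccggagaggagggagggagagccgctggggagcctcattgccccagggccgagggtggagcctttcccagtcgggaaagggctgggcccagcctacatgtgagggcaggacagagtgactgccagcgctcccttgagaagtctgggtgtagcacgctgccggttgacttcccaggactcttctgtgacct

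Metabolic and transport genes included Ampd3 (chromosome 7, 110768206 to 110812405), an AMP deaminase. In wild type Ampd3 was at 10.8, 10.3 and 12.2 CPM with vehicle, 34.1, 33.4 and 32.4 with Dex, 22.7, 22.9 and 23.4 with LPS and 47.4, 52.8 and 53.9 with both. In mutant cells Ampd3 was at 12.3, 12.4 and 12.4 CPM with vehicle, 12.5, 13.2 and 13.0 with Dex, 25.0, 24.3 and 29.9 with LPS and 26.9, 22.2 and 24.5 with both. Dex alone gave more Ampd3 than LPS alone in every wild-type library, and the mutant passed the test with LPS only. Its rise with Dex was 2.98-fold (log2 1.58 ± 0.08, adjusted p = 3.35e-12). Slc43a2, a transporter of large neutral amino acids, was at 11.5, 10.5 and 12.2 CPM with LPS and 19.3, 21.0 and 19.7 with both in wild type, and at 20.1 to 21.6 with LPS in the mutant. Slc2a6, which encodes the glucose transporter family member GLUT6, was at 18.1, 18.4 and 17.99 CPM with LPS and 28.1, 23.96 and 19.7 with both in wild type, and higher with LPS in the mutant (26.0 to 30.2). The ratio of Slc2a6 without Dex and LPS replicate 1 was 1.20. Cbr2, a carbonyl reductase, had ratios of 1.71, 1.31 and 1.18 in the 3 libraries. Neither Slc2a6 nor Cbr2 passed the test with Dex alone in the fit of all libraries. Both passed in the fit of the compared groups alone (adjusted p = 0.0119 and 0.00038). In the mutant Cbr2 was at 6.04 to 6.74 CPM with vehicle and 7.93 to 10.2 with Dex. That change (log2 0.45 ± 0.14) did not pass (adjusted p = 0.675), though the groups did not overlap. It was 0.40 ± 0.14 in wild type, with a genotype difference of 0.05 ± 0.19 (adjusted p = 0.952).

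Genes of trafficking, the cytoskeleton and other roles made up most of the rest. Rcsd1, whose product binds the actin capping protein CapZ, was at 3.43, 2.99 and 3.32 CPM with LPS and 10.2, 7.17 and 8.08 with both, a ratio of 2.51. Rasl12, a small GTPase of the Ras family, had 2.79, 2.52 and 2.94 and 6.27, 6.31 and 5.72 CPM. Gopc, a Golgi protein with a PDZ domain, moved by smaller but even amounts, from 55.8, 53.2 and 52.8 CPM with vehicle to 66.0, 65.8 and 67.0 with Dex, 85.0, 80.1 and 85.3 with LPS and 122, 133 and 141 with both. Gopc overlapped in no 2 of these 4 groups, and its rise with Dex alone was a log2 of 0.30 ± 0.06 (adjusted p = 0.00121). Its genotype difference (-0.28 ± 0.09, adjusted p = 0.046) was lost in 15 alternative settings. Stxbp6, a syntaxin-binding protein, rose with Dex by a log2 of 0.73 ± 0.08 (adjusted p = 1.02e-06), and Rnf180, a ubiquitin ligase, by 1.86 ± 0.20 (adjusted p = 2.95e-07). Eva1c (1.32), Nol4 (0.65) and Fam110c (0.61) rose as well, while Gm8773 did not pass. The ratio of Eva1c fell to 1.29 without replicate 1 with Dex and LPS.

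A further 4 members are best known from leukocytes. Ncf1 encodes p47phox of the phagocyte NADPH oxidase, Igsf6 a receptor of the immunoglobulin family, and Ms4a4d and Ms4a6d membrane proteins with 4 transmembrane segments. In wild type Ncf1 was at 2.47, 1.79 and 2.27 CPM with vehicle, 3.74, 3.76 and 4.25 with Dex, 4.80, 4.05 and 4.62 with LPS and 7.52, 8.11 and 7.00 with both. In mutant cells Ncf1 was at 4.54, 5.90 and 4.47 CPM with vehicle, 5.60, 4.39 and 5.36 with Dex, 8.23, 8.68 and 8.29 with LPS and 8.56, 7.60 and 7.88 with both. Mutant libraries with vehicle were above wild-type ones for Ncf1, Igsf6 (0.971 to 1.14 against 0.306 to 0.413 CPM) and Ms4a6d (2.62 to 2.97 against 1.49 to 1.66 CPM). The 4 genes rose with Dex alone in wild type by log2 0.82 (Ncf1), 1.16 (Igsf6), 1.43 (Ms4a4d) and 1.297 (Ms4a6d). The 19 leukocyte markers, of which 14 passed the filter, summed in wild type to 106 to 109 CPM with vehicle, 83.9 to 94.4 with Dex, 88.5 to 90.7 with LPS and 90.5 to 105 with both. In the mutant the sums were 240.1 to 247, 228 to 252, 186 to 198 and 185 to 218 CPM. Ptprc, the pan-leukocyte gene for CD45, was at 2.15 to 2.76 CPM with vehicle, 1.10 to 1.80 with Dex, 4.87 to 4.98 with LPS and 3.30 to 4.42 with both in wild type, and at 3.74 to 4.50, 3.71 to 3.93, 7.54 to 9.23 and 7.89 to 10.6 in the mutant. Adgre1, a macrophage gene, was at 2.80 to 2.91, 1.80 to 2.41, 5.14 to 6.64 and 6.21 to 6.68 CPM in wild type and 7.22 to 8.24, 7.09 to 7.41, 12.9 to 15.2 and 12.02 to 15.8 in the mutant. Ptprc and Adgre1 were thus higher with LPS, as the 4 members were. With Dex alone in wild type both were lower, where the members rose. Csf1r, Cd68 and Tyrobp, also leukocyte genes, went the other way with LPS. Their wild-type means with vehicle and LPS were 10.9 and 7.18, 6.87 and 5.85, and 3.05 and 2.11 CPM. Mutant means of these genes were 26.8 and 15.7, 12.7 and 10.4, and 5.61 and 4.44 CPM. The summed list was likewise lower with LPS than with vehicle. Ptprc, Adgre1 and the sum were higher in the mutant than in wild type under each treatment. The part of leukocytes in these values was not tested.

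None of the 40 genes passed the test for Dex in the GR mutant, with or without LPS, in libraries that the choice of genes did not use. With Dex alone 0 rose and 0 fell, where 0% of all genes were called, and with Dex under LPS 0 rose and 0 fell, where 0.00657% of genes rose and 0% fell (edgeR). At an unadjusted p below 0.05 there were 5 and 3 of the 40 genes, in 1109 and 889 genes of all, and DESeq2 called 0 and 1 of the 40 (Serpina3g). The median log2 change of the 40 genes was 0.07 with Dex alone (range -0.62 to 0.49) and 0.00 with Dex under LPS (-0.34 to 0.45). With Dex under LPS 20 genes were above 0 and 20 below. The highest was Ms4a4d (log2 0.45 ± 0.18, adjusted p = 0.723), whose mutant groups with LPS and with both agents did not overlap. The wild-type values for Dex under LPS, which chose the genes, had a median of 0.70 (range 0.38 to 2.62).

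**Figure D3:**
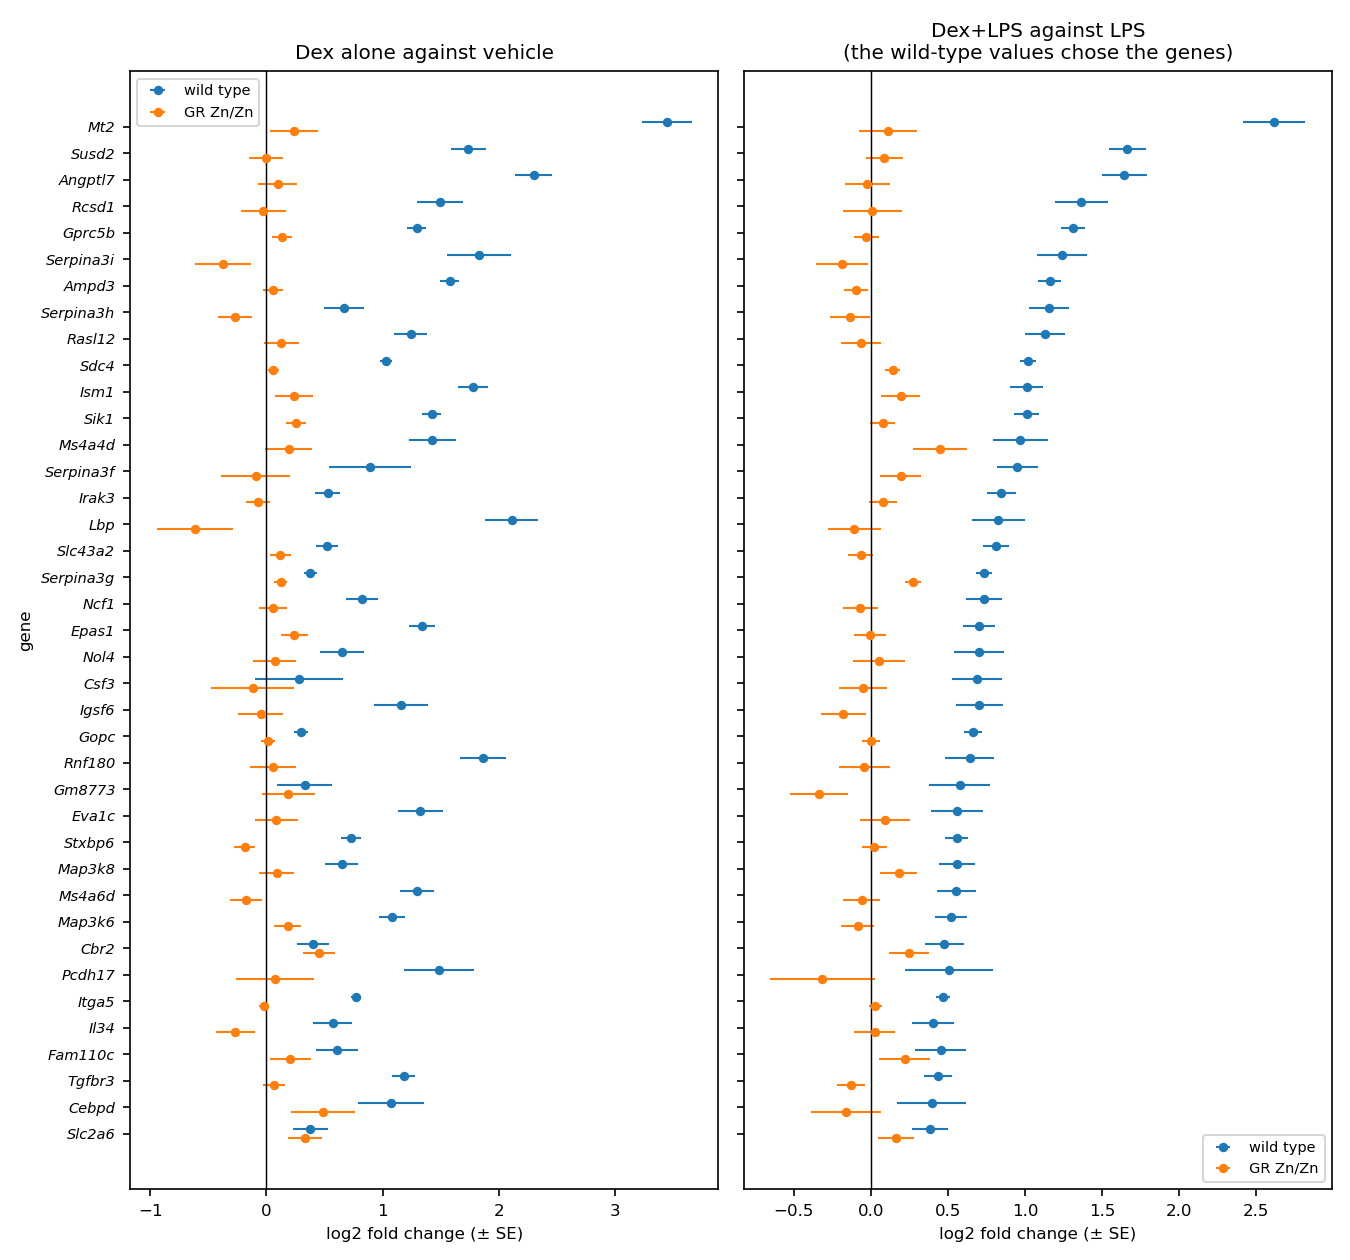
Log2 fold change ± SE with Dex for 39 of the 40 genes (rows), in wild type (blue) and GR Zn / Zn (orange), without LPS on the left and under LPS on the right. With Dex alone the wild-type points run from 0.28 to 3.44 and the mutant points from -0.62 to 0.49, and the wild-type points on the right were the basis of the choice.

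The difference of the Dex effect between genotypes passed the test for 28 of the 40 genes, all with a lower response in the mutant, where 4.4% of genes responded less in the mutant and 2.6% more. The largest differences were those of Mt2 (log2 -3.21 ± 0.29), Lbp (-2.73 ± 0.45), Angptl7 (-2.20 ± 0.23) and Serpina3i (-2.20 ± 0.36). The median was -0.97, against 0.00 over all genes. The 12 genes that did not pass were Serpina3f, Slc43a2, Serpina3g, Nol4, Csf3, Gm8773, Map3k8, Cbr2, Pcdh17, Fam110c, Cebpd and Slc2a6. Without the 5 libraries that stand apart it passed for 31 of the 40 genes, again all lower in the mutant, while the number of genes called in either direction went from 1064 to 2191. Among the 28 calls, those of Gopc, Il34, Igsf6, Irak3 and Serpina3h were lost in at least 1 alternative setting. That of Il34 was also lost without the 5 libraries that stand apart. This difference of the Dex effect uses the wild-type vehicle libraries of the choice. A comparison that uses none of its libraries is that of Dex-treated mutant with Dex-treated wild-type cultures: 27 of the 40 genes were lower in the mutant, where 15.2% of genes were, and 1 was higher, where 11.3% were. Without the libraries that stand apart these counts were 30 and 1. This comparison also holds genotype differences present without Dex, which went in both directions. Mean vehicle levels were 597 CPM in the mutant and 785 in wild type for Itga5, and 47.6 and 22.7 CPM for Tgfbr3. The lower genes with the smallest p were Itga5 (log2 -1.19 ± 0.05, adjusted p = 6.39e-15), Sdc4 (-0.89 ± 0.05, 3.2e-12), Gprc5b (-1.42 ± 0.08, 5.19e-12), Ampd3 (-1.36 ± 0.08, 9.44e-12) and Ism1 (-2.34 ± 0.14, 9.44e-12). Lbp had the largest difference (-3.63 ± 0.27). The gene that was higher was Ncf1 (0.38 ± 0.13, adjusted p = 0.0263), a call that was lost without any one of wild-type Dex replicates 1 and 2 and mutant Dex replicates 1 and 3. The genotypes with Dex and LPS are given as values only: the Dex effect under LPS had a log2 difference of -2.51 to -0.22, below 0 for all 40 genes, in which the choice of the genes has a part.

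LPS raised the genes in the mutant as well. Of the 40 genes 38 rose with LPS against vehicle in mutant cultures and none fell, where 19% of all genes rose and 17.7% fell. The median log2 change was 1.27 (all genes, 0.00), beside 1.16 in wild type, where LPS chose the genes, and 25 of 40 genes had the larger value in the mutant. The largest rises were those of Csf3 (log2 5.76 ± 0.24, adjusted p = 8.89e-15), Serpina3f (4.74 ± 0.19, 4.38e-15), Lbp (3.94 ± 0.23, 2.77e-12), Mt2 (2.67 ± 0.21, 1.73e-09) and Slc2a6 (2.62 ± 0.13, 2.35e-13). The smallest were those of Gprc5b (0.76 ± 0.08), Cbr2 (0.75 ± 0.13) and Fam110c (0.61 ± 0.17). Pcdh17 (0.52 ± 0.32, adjusted p = 0.226) and Rcsd1 (0.48 ± 0.19, adjusted p = 0.0524) did not pass. For Csf3 there were 12 reads over the 3 mutant vehicle libraries. Mutant vehicle replicate 1 and LPS replicate 2 stand apart, and without the 5 such libraries 37 of the 40 genes rose.

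How the agents combined in wild type is given as values, and differences between members were not tested. The log2 change with both agents against vehicle was set against the sum of the log2 changes with each agent alone, as a description, since its libraries chose the genes. It was above the sum for 12 genes and below it for 28, with a median difference of -0.17 and 27 genes within 0.5. Without the 5 libraries that stand apart 11 genes were above and 29 below, with a median of -0.25. Among the genes above were Serpina3h (0.49), Csf3 (0.41), Gopc (0.36), Serpina3g (0.35) and Irak3 (0.32). Serpina3h was at 0.24 and Csf3 at 0.29 without the libraries that stand apart. The sum for Csf3 holds its change with Dex alone of 0.28 ± 0.38, which rests on few reads. Sdc4 (-0.01) and Gprc5b (0.02) were close to the sum. The genes furthest below were Lbp (-1.28), Rnf180 (-1.22), Pcdh17 (-0.98), Mt2 (-0.83), Ism1 (-0.77) and Eva1c (-0.77). Dex alone gave a larger log2 change than LPS alone for 15 of the 40 genes, among them Mt2, Angptl7, Gprc5b, Ampd3, Sik1 and Susd2.

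**Figure D4:**
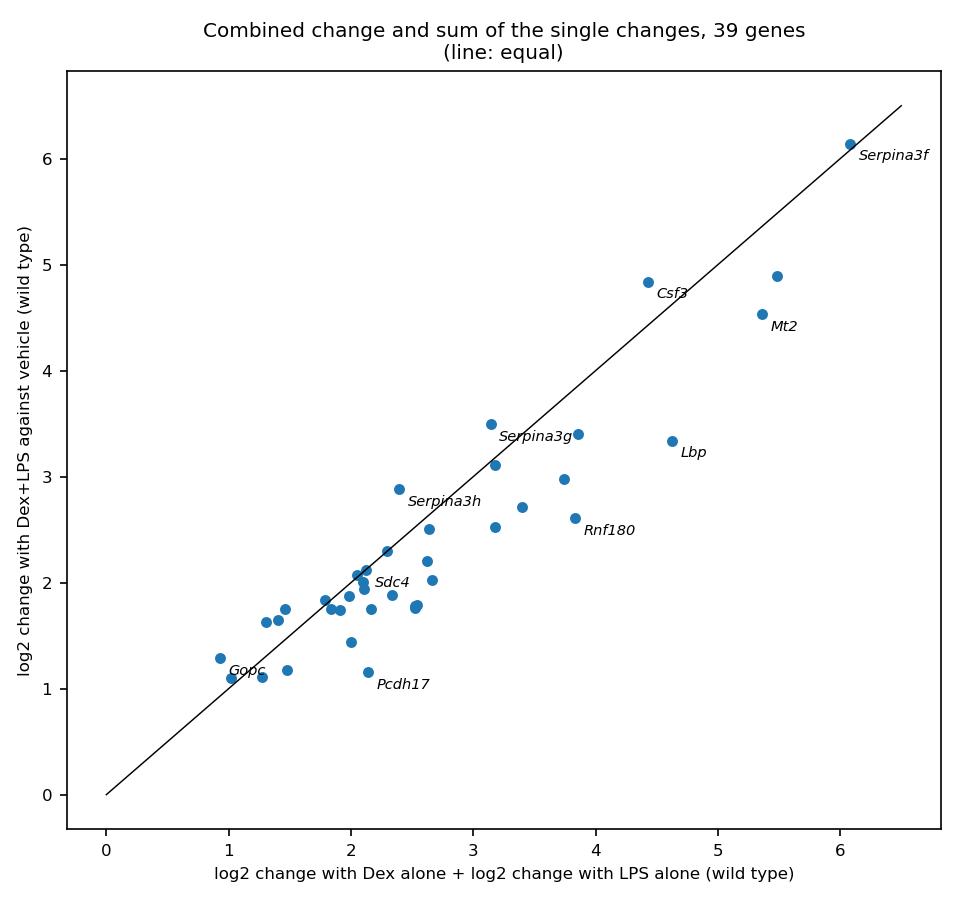
For 39 of the 40 genes (points) in wild type, the log2 change with Dex and LPS together against vehicle (vertical) over the sum of the log2 changes with Dex alone and LPS alone (horizontal), with the line of equality. Lbp, Rnf180, Pcdh17 and Mt2 lie below the line by 0.83 to 1.28, and Serpina3h and Csf3 lie above it by 0.49 and 0.41.

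The gene lists used to place the members held few of them. With 40 members among 12588 genes, a low count on a short list is not read as a result. On a list of 38 genes known to be raised by glucocorticoids together with inflammatory signals there were 4 members (Irak3, Cebpd, Csf3 and Mt2). Of its 37 tested genes 11 rose and 3 fell with Dex alone in wild type (median log2 0.06), and 33 rose with LPS in the mutant. Of 31 classical glucocorticoid-induced genes, with Mt2 and Cebpd as members, 26 rose and 1 fell with Dex alone in wild type. Of 47 cytokine, growth factor and chemokine genes, with Il34 and Csf3 as members, 2 rose and 23 fell with Dex alone in wild type (median log2 -0.43), while 31 rose and 10 fell with LPS in the mutant. More genes of that list fell than rose with Dex, Il34 being one of the 2 that rose. Of 31 NF-kB signalling genes, with Irak3 and Map3k8 as members, 5 rose and 4 fell with Dex and 27 rose with LPS in the mutant. No interferon-stimulated gene of the list was a member: of 36 tested, 2 rose and 1 fell with Dex alone in wild type, and 36 rose with LPS in the mutant. Of 33 acute phase, complement and antimicrobial genes, with Lbp, Serpina3f, Serpina3g and Serpina3i as members, 4 rose and 2 fell with Dex, and of 28 genes of metal handling and redox defence, with Mt2 as a member, 10 rose and 5 fell. The 10 acute phase and complement genes left out by name, 6 of which met the thresholds, could not be members.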

How the data were processed

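RNA-seq libraries of MEFs (500 ng total RNA each, per the labels) were counted per gene by the authors with STAR on mm10, and the submitters' processing notes name versions 2.4.2 and 2.4.2a. The deposited counts hold 3 strand settings. The reverse-strand column was used, as the other strand held 2.70 to 2.91% of counted reads. The authors' deposited normalized counts, a scaled read signal, equalled unstranded counts after division by a single factor in each library (tolerance 1e-06 for all genes above 20 reads) and served to choose the genes only. A further 72 columns of per-sample values in the authors' deposited results were not used.

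Counts of 24 libraries were fitted in 1 model with edgeR 4.0.16 (R 4.3.3): TMM scaling, filterByExpr by group, quasi-likelihood test with robust spread, 1 coefficient per group. Of 45706 genes listed, 15221 passed the filter. Fold changes use a prior count of 2, SE is the log2 change divided by the square root of F, and calls were made below 0.05 after Benjamini-Hochberg adjustment across the tested genes. Levels of members are TMM-scaled CPM, while those of marker genes and marker lists are CPM without TMM scaling. Coordinates are those of GENCODE vM21 on mm10. Total counts of 18.9 to 58.0 M per library set the precision. Promoter windows came from RefSeq. Alternatives were the filter, DESeq2 size factors, the DESeq2 1.42.0 Wald test, unstranded counts, only the compared groups, the replicate block, and libraries left out.

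The members, gene lists and marker lists were chosen with earlier results of these data known. Genes named in the text were the 12 with the highest ratio, those on a gene list, the 5 highest and lowest with Dex in wild type and with LPS in the mutant, the 5 with the smallest p between genotypes with Dex, those near a threshold, and up to 10 whose place rests on 1 library, and other members were then named to give their role. The values of 1 member are not reported here, though it stays in the counts.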

Additional observations from a re-analysis of the deposited data

Results flagged for a closer look

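The response to Dex without LPS differed between genotypes for 28 of the 40 genes, each lower in the mutant by a test of the difference itself (edgeR, adjusted p below 0.05), where 4.4% of all genes had a lower response. Mt2, Lbp, Angptl7 and Serpina3i had the largest differences, and the wild-type vehicle libraries in this difference were also used to choose the genes.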

How the results depend on the processing

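Leaving out 1 wild-type library left 35 to 43 genes in the set, and without wild-type Dex and LPS replicates 1 and 3 there were 39, of which 38 were shared. With TMM-scaled CPM in place of the deposited values 42 genes met the thresholds, all 40 among them. The comparison of the combined change with the sum was repeated without the 5 libraries after seeing the data. A total of 12 genes lost their place without some single library, among them Cbr2, Pcdh17, Fam110c, Angptl7, Gm8773, Il34, Cebpd, Eva1c, Slc2a6 and Tgfbr3. For Dex under LPS in the mutant, 1 gene, Serpina3g, rose with the replicate block, with the DESeq2 Wald test and without the 5 libraries that stand apart, against 0 in the fit of all libraries, and over all genes the calls went from 1 to 12, 28 and 160. Between genotypes with Dex the number of higher genes was 0 with unstranded counts and 0 to 1 when 1 library was left out, the gene being Ncf1. The number of all genes called went from 2003 to 4330 for Dex in wild type, from 4030 to 6668 between genotypes with Dex and from 1064 to 2191 for the genotype difference without the 5 libraries, and to 4659, 6297 and 1659 with only the compared groups in the fit. The cause was not tested. No direction reversed. Of 1845 gene results under these settings 1756 kept their call and 89 lost it, among 18 of 129 calls. Deviations of replicates with the same number correlated at -0.34 to 0.35 between groups, and the main fit did not pair them. Whether the numbers pair the samples is not stated, and these correlations cannot decide it. The replicate block changed the number of members called by over 1.5 times in no other comparison. Serpina3f, Serpina3i, Csf3 and Lbp had few reads without LPS.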
